A study of Mus musculus with 12 samples.

Results

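The genes described here encode 10 RNA-binding proteins that direct alternative splicing in neural and glial cells, namely Qk, Ptbp1, Ptbp2, Nova1, Nova2, Rbfox1, Rbfox2, Srrm4, Mbnl1 and Mbnl2. They were chosen by name, and all 10 were found among the 47069 genes of the expression table. Their RNA was measured by total RNA-seq of Pdgfra/GFP+ cells, which were obtained by fluorescent sorting from Pdgfra-H2BGFP animals, a mouse knock-in line in which 1 Pdgfra allele drives a green fluorescent protein (GFP) in the nucleus. The 12 libraries form 4 untreated groups of 3, from the embryo (E13.5) and from pups a week after birth (P7), each with brain, here the forebrain, and spinal cord, called cord below. Cells of several animals were combined in each library, and histone-bound GFP can outlast Pdgfra, so that cells which have already switched Pdgfra off may still be sorted. E13.5 tissue was dissociated mechanically and P7 tissue with papain, so age and dissociation cannot be told apart.

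Splicing regulators of this kind bind short motifs in a pre-mRNA and promote or block the use of nearby exons. QKI, the product of Qk (quaking), is a protein of glia and is required for myelination. PTBP1 represses neuronal exons in progenitors, and its paralog PTBP2 takes over from it in young neurons. NOVA1, NOVA2 and RBFOX1 are best known from neurons, RBFOX2 is widely expressed, SRRM4 promotes the inclusion of very short neuronal exons, and the MBNL proteins bring about the postnatal switch of many exons. The values are RNA levels per gene. No exon or isoform was measured, and nothing here says how an RNA was spliced.

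Values are CPM, read counts scaled to a library size that the authors had adjusted and expressed on the usual per-megaread scale. A gene was called where its difference between groups was more than 2-fold and its adjusted p was under 0.05 (limma on log2(CPM + 0.5), Benjamini-Hochberg over all 18319 genes tested). All 10 regulators passed the filter on low values, 0.7 CPM in at least 3 libraries. Differences are given as log2 units with their standard error (SE). On this scale the median of all genes differed by -0.19 for P7 minus E13.5 in brain, 0.12 for the same in cord, 0.05 for brain minus cord at E13.5 and -0.19 at P7. After TMM rescaling (trimmed mean of M values) those medians were -0.02, 0.12, 0.05 and -0.02, so the deposited scaling moved only the comparisons that hold P7 brain. Differences of about that size do not set a gene apart from the rest.

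Libraries held 12566345 to 38790312 reads, with all P7 libraries deeper than all E13.5 libraries. E13.5 cord replicate 3 stood apart. Protein-coding genes took 40.9% of its reads, against 82.4% to 91.1% in the other 11. Over 2682 genes with at least 50 CPM in every library, the SD of its log2 ratio to the other replicates was 0.595 and 0.553, and that between those replicates was 0.143. At P7 replicates 1 and 2 were closer to each other (SD 0.058 in brain and 0.0516 in cord) than to replicate 3 (0.157 to 0.176). The methods call the replicates pooled and biological, and the labels do not say which animals went into which. The summed level of 6 precursor markers (Pdgfra, Cspg4, Olig1, Olig2, Sox10 and Gpr17) was 795 to 1406 CPM in E13.5 brain, 512 to 777 CPM in E13.5 cord and 8241 to 8673 CPM at P7. Markers of other cells moved with the groups as well. Of 4 astrocyte markers, Gja1 was called lower at P7 in both regions, Aqp4 and Gfap higher in both and Aldh1l1 higher in brain, so their sum, which is mostly Gja1, is not a measure of the list. Of 4 microglia markers, Tmem119 was called lower at P7 in both regions. Cx3cr1, C1qa and Csf1r were called higher at P7 in brain and not called with age in cord. These latter genes were also called higher in P7 brain than in P7 cord. The sum of the 4 was 14.5 to 69.3 CPM over all libraries and is likewise not a measure of the list. The sum of 7 vascular and leptomeningeal markers was 5937 to 12734 CPM at E13.5 and 1078 to 2598 CPM at P7. The sum of 7 myelinating oligodendrocyte markers was 34.6 to 86.5 CPM at E13.5, 1922 to 4520 CPM in P7 brain and 19894 to 26777 CPM in P7 cord. In sorted bulk samples fewer cells of a type and less RNA per cell cannot be told apart.

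With age, 5 of the 10 regulators were called in brain and 4 in cord. In brain Qk and Nova1 were called higher at P7 and Ptbp1, Rbfox2 and Srrm4 lower, where 11% of all genes were called higher and 16.7% lower. In cord Qk was called higher and Rbfox1, Rbfox2 and Srrm4 lower, where 16.9% of all genes were called higher and 18.2% lower. Qk, Rbfox2 and Srrm4 were therefore called in the same direction in both regions. The E13.5 and P7 values of each called gene did not overlap. By adjusted p alone, with no fold threshold, 6 regulators passed in brain and 9 in cord, against 61.3% and 70% of all genes, so passing without the fold threshold was common in the whole table. The median difference over the 10 regulators was 0.04 in brain and -0.31 in cord.

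**Figure D1:**
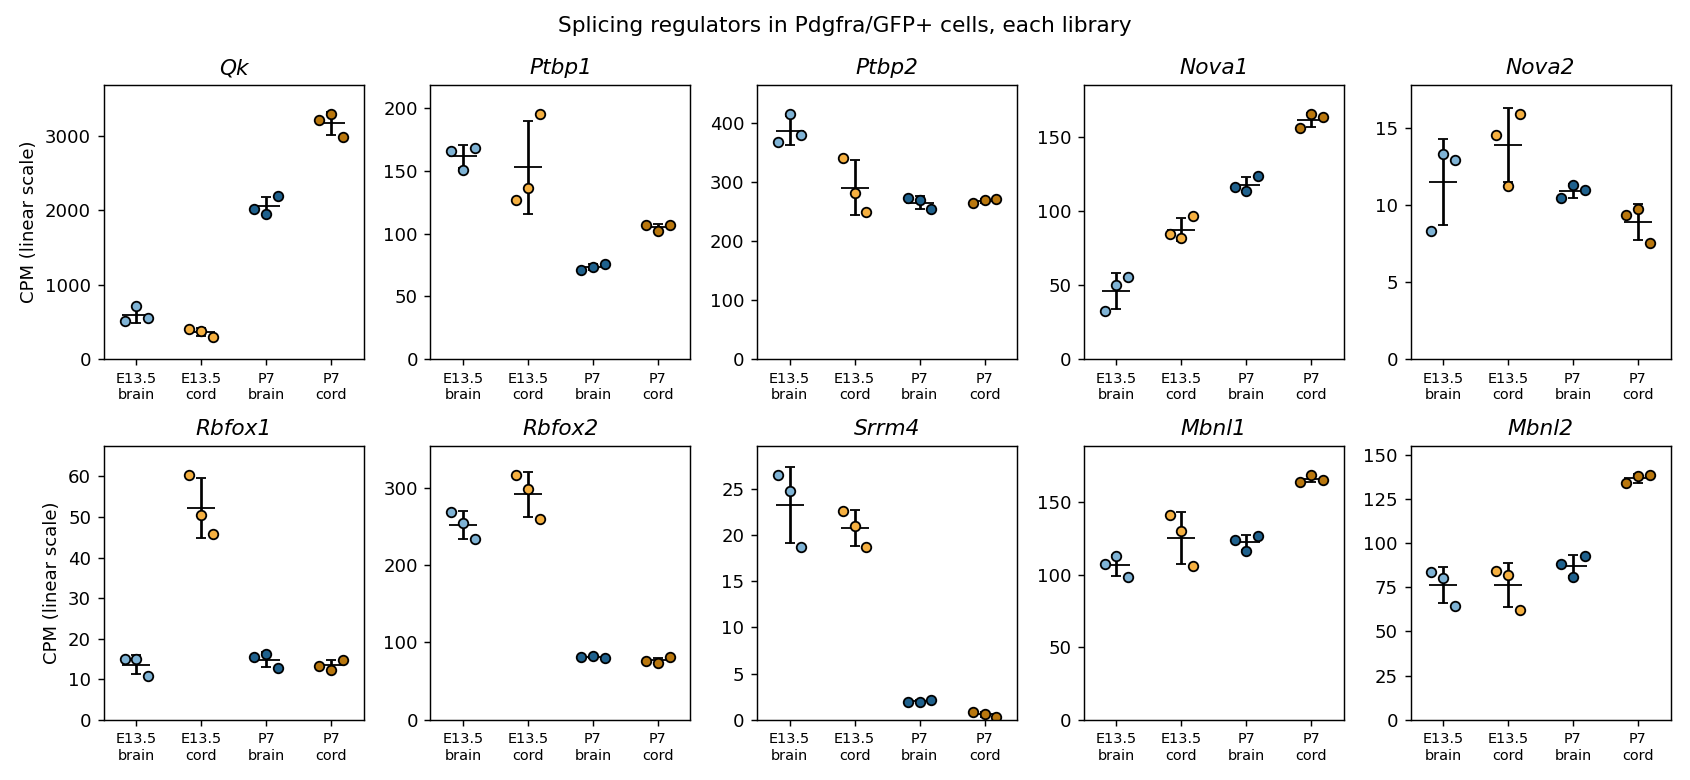
CPM of each regulator (vertical axis, linear, starting at 0) in every library of the 4 groups (horizontal axis), with points for replicates 1, 2 and 3 from left to right, a horizontal bar for the mean and error bars for the SD. Qk is highest in the 3 P7 cord libraries, Rbfox1 stands out in E13.5 cord at 45.7 to 60.3 CPM, and Srrm4 is at or under 2.14 CPM in every P7 library.

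Qk (ENSMUSG00000062078, chromosome 17, 10202601 to 10319854, minus strand, GRCm38) had the largest rise. Its level was 509, 716 and 553 CPM in E13.5 brain and 404, 377 and 299.7 CPM in E13.5 cord. At P7 it was 2022, 1954 and 2186 CPM in brain and 3217, 3289 and 2990.2 CPM in cord. All 4 groups were apart from each other, in the order P7 cord, P7 brain, E13.5 brain and E13.5 cord. The rise was 1.81 ± 0.18 log2 units in brain (SE, limma, Benjamini-Hochberg adjusted p 2.28e-06), or 3.5-fold, and 3.14 ± 0.18 in cord (adjusted p 9.93e-09), or 8.84-fold. At E13.5 Qk was 1.64-fold higher in brain and at P7 it was 1.54-fold higher in cord, and neither difference passed the fold threshold. The interaction of region and age, tested directly as the P7 region difference minus the E13.5 one, was called at -1.34 ± 0.25 (limma, Benjamini-Hochberg adjusted p 0.00127), and was -1.15 after TMM rescaling. Of the 6 precursor markers 4 were called higher in brain than in cord at E13.5, and 5 were called lower in the same interaction (median -1.38 over the 6), as were all 7 myelinating oligodendrocyte markers. Their part in the Qk interaction was not tested. The P7 difference of Qk alone had an adjusted p of 0.0191, and of 0.12 after TMM rescaling, when it was -0.43.

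The 2 genes whose pattern over the 12 libraries was most like that of Qk were Gng12, a G protein gamma subunit (Pearson r 0.997), and Pank3, a pantothenate kinase of coenzyme A synthesis (r 0.997). Gng12 averaged 60.4 and 35.4 CPM in E13.5 brain and cord and 259 and 419 CPM at P7, the same order of groups as Qk. Libraries, depth and scaling are shared by all such pairs, so these correlations are descriptions.

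RNAs of genes known to be bound or spliced by QKI, or to need it for their expression in myelinating cells, were listed beside Qk. Among these were the myelin genes Mbp and Mag, the myelin transcription factor gene Myrf, the node and paranode adhesion gene Nfasc and the cell cycle inhibitor gene Cdkn1b. Mbp, Mag, Myrf and Nfasc were called higher at P7 in brain and in cord, and lower in P7 brain than in P7 cord. Cdkn1b was not called in any of these comparisons (0.43 and 0.98 with age). Mag was at 0.0878 to 5.20 CPM in E13.5 brain and 0.578 to 0.715 CPM in E13.5 cord. It was at 87.4 to 262 CPM in P7 brain and at 1589 to 2478 CPM in P7 cord. Nfasc had a mean of 66.8 ± 0.534 CPM in E13.5 brain and 2277 ± 467 CPM in P7 cord (SD, n = 3). Mbp and Mag are also defining markers of myelinating oligodendrocytes, so the Qk rise runs beside the rise in the 7-marker sum given above. The part of these cells in the Qk level was not tested.

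QKI binds its own RNA as well as those of other genes, and a match to its motif in the transcripts of Qk is shown here for that reason. The letters ACTAAC or ACTAAT were searched on the transcript strand only, in the longest annotated 3′ UTR of a gene (GENCODE M21 on GRCm38). Not every gene was searched, and the 19411 UTRs used had at least 100 bases. These 2 spellings differ in the last letter, and overlapping matches were each counted. The 3′ UTR of Qk, of 7014 bases, held 5 matches, of which 4 are printed with 12 bases on each side and the match in capitals. The site numbers count the printed matches only, not all 5.
Qk site 1, chr17:10206538-10206567, minus strand: taataccaacctACTAACtctggactatgt
Qk site 2, chr17:10206455-10206484, minus strand: ttgagttcctggACTAACactgaagaacgt
Qk site 3, chr17:10204297-10204326, minus strand: tgtttctgctgcACTAATtgccaggggtgg
Qk site 4, chr17:10204263-10204292, minus strand: ggaggagcagcaACTAATccatggtaggca
Of 413 3′ UTRs within 20% of that length, 90.1% held a match, with a median of 2, and 16.5% held at least as many as Qk. Among the other regulators Srrm4 had 3 matches, Mbnl2 2, and Nova2 and Mbnl1 1 each, and the remaining 5 had 0. A match is a run of letters and was not tested for binding.

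Ptbp1 (ENSMUSG00000006498, chromosome 10, 79854427 to 79864771, plus strand) had 166, 151 and 168 CPM in E13.5 brain and 71.1, 73.5 and 76.2 CPM in P7 brain. In cord it had 127, 137 and 195 CPM at E13.5 and 107, 102 and 107 CPM at P7. In both regions every P7 library was below every E13.5 library. In brain Ptbp1 fell by 1.13 log2 units (SE 0.13, limma, Benjamini-Hochberg adjusted p 1.05e-05). That call rests on the scaling, since the difference was -0.94 with TMM scaling and -0.92 with median-ratio scaling, both under the fold threshold (adjusted p 4.77e-05 and 5.81e-05). In cord the difference was -0.51 ± 0.13 and was not called, and without E13.5 cord replicate 3 it was -0.33. Plppr3, a phospholipid phosphatase related gene on the opposite strand, shares 251 exonic bases with Ptbp1 and averaged 86.4 and 111 CPM in E13.5 brain and cord and 8.87 and 7.16 CPM at P7. Whether the counting used the strand is not stated, and the part of those shared bases in the Ptbp1 counts was not tested.

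Ptbp2 (ENSMUSG00000028134, chromosome 3, 119718742 to 119784466, minus strand) was not called in any comparison. It had 368, 415 and 379.6 CPM in E13.5 brain and 341, 282 and 249 CPM in E13.5 cord. At P7 it had 273, 269 and 254 CPM in brain and 265, 269.6 and 271 CPM in cord. Only E13.5 brain stood clear of the other groups, which overlapped. The difference with age was -0.54 ± 0.11 in brain (limma, Benjamini-Hochberg adjusted p 0.00125) and -0.10 ± 0.11 in cord (adjusted p 0.445, 95% interval -0.33 to 0.12). Gm42664 and Gm43300, annotated within its introns, averaged 47.7 and 19.6 CPM over all libraries and share 0 exonic bases with it.

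A ratio of 2 paralogs within a library does not depend on how that library was scaled, so ratios were tested by exact permutation (two-sided), by age within region and by region within age, with 8 tests adjusted together. The log2 ratio of Ptbp2 to Ptbp1 in brain was 1.15, 1.46 and 1.17 at E13.5 and 1.94, 1.87 and 1.73 at P7. In cord it was 1.42, 1.04 and 0.35 at E13.5 and 1.31, 1.40 and 1.34 at P7. The ratio was higher at P7 by 0.50 (exact permutation p 0.02, adjusted p 0.04) and higher in brain by 0.41 (exact permutation p 0.02, adjusted p 0.04). All P7 brain libraries were above all E13.5 brain libraries, and in cord the ages overlapped. The low value of 0.35 is E13.5 cord replicate 3, without which the differences were 0.35 and 0.26 and neither passed (exact permutation, adjusted p 0.08). Leaving out 1 library ended each of these calls in 10 of 12 cases, with adjusted p of 0.05 to 0.0857 by exact permutation. Per kilobase of exon, Ptbp2 was at 1.24 ± 0.153 times the Ptbp1 level in E13.5 brain, 1.04 ± 0.366 in E13.5 cord, 1.87 ± 0.135 in P7 brain and 1.32 ± 0.0433 in P7 cord (SD, n = 3).

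**Figure D2:**
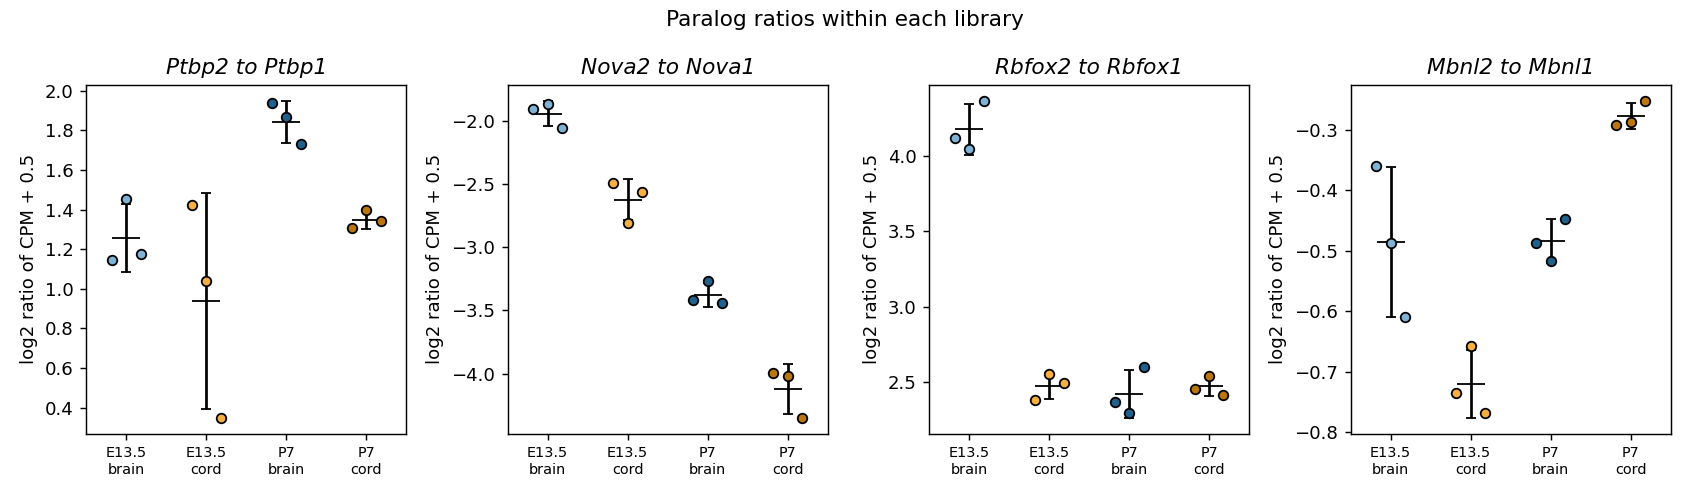
Log2 ratio of CPM + 0.5 between paralogs within each library (vertical axis, a separate linear scale for each pair) in the 4 groups, with points for replicates 1, 2 and 3, a bar for the mean and error bars for the SD. Nova2 to Nova1 falls in 4 separate groups from -1.87 down to -4.35, while Rbfox2 to Rbfox1 is set apart only in E13.5 brain, at 4.05 to 4.37.

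Known regulators of the PTB pair were listed with them. Rest, a repressor of neuronal genes that also holds down Srrm4 and the miR-124 genes, had a mean of 106 ± 5.56 and 63.4 ± 3.09 CPM in brain at E13.5 and P7 and of 103 ± 12.4 and 76.9 ± 3.68 CPM in cord (SD, n = 3). It was not called with age (-0.74 and -0.41). Mir124-2hg, a host transcript of miR-124, the miRNA that targets Ptbp1 in neurons, fell by 2.14 log2 units in brain and by 4.41 in cord, and Mir124a-1hg by 1.62 in cord. Host transcripts are not mature miRNAs, which were not measured. Of genes with exons known to be repressed by PTB proteins, Dlg4 (0.31 and -0.51) and Gabbr1 (0.80 and 0.57) were not called with age in brain or cord.

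Nova1 (ENSMUSG00000021047, chromosome 12, 46694517 to 46818929, minus strand) had 32.4, 49.7 and 55.5 CPM in E13.5 brain and 84.2, 81.5 and 96.5 CPM in E13.5 cord. At P7 it had 116, 114 and 124 CPM in brain and 156, 165 and 163 CPM in cord. The 4 groups did not overlap, and cord was above brain at both ages. Nova1 rose in brain by 1.39 ± 0.16 log2 units (SE, limma, Benjamini-Hochberg adjusted p 7.49e-06), or 2.61-fold. In cord its difference of 0.89 ± 0.16 (adjusted p 0.00024), or 1.85-fold, was under the fold threshold, and whether the regions differ in this was tested directly and did not pass (0.50, adjusted p 0.0899, and 0.69 with adjusted p 0.03 but under the fold threshold after TMM rescaling). The difference between brain and cord at E13.5 was -0.96 ± 0.16 (limma, Benjamini-Hochberg adjusted p 0.000546), close to the fold threshold. It passed that threshold at -1.04 after median-ratio rescaling, and at -1.03 without E13.5 brain replicate 2, -1.11 without E13.5 brain replicate 3 and -1.003 without E13.5 cord replicate 2.

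Nova2 (ENSMUSG00000030411, chromosome 7, 18925888 to 18965319, plus strand) was low and was not called. It had 8.27, 13.3 and 12.9 CPM in E13.5 brain, 14.5, 11.2 and 15.9 CPM in E13.5 cord, 10.4, 11.3 and 10.9 CPM in P7 brain and 9.34, 9.72 and 7.54 CPM in P7 cord. In cord all P7 libraries were below all E13.5 libraries (-0.61 ± 0.18, limma, Benjamini-Hochberg adjusted p 0.0102), and in brain the ages overlapped. The log2 ratio of Nova2 to Nova1 was the clearest of the paralog ratios. In brain it was -1.91, -1.87 and -2.06 at E13.5 and -3.42, -3.27 and -3.44 at P7. In cord it was -2.50, -2.81 and -2.57 at E13.5 and -3.99, -4.02 and -4.35 at P7. The groups did not overlap. The ratio differed by -1.46 with age and by 0.71 between brain and cord, each with the smallest p that 400 splits allow (exact permutation p 0.005, adjusted p 0.02). With P7 replicates 1 and 2 averaged, which leaves fewer splits, the differences were -1.50 and 0.73 with an adjusted p of 0.0667 each by exact permutation. Per kilobase of exon Nova2 was at 0.263 ± 0.018 of the Nova1 level in E13.5 brain and at 0.0574 ± 0.00793 in P7 cord (SD, n = 3).

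Of genes with exons known to be regulated by NOVA, Glra2, a glycine receptor subunit, was called lower at P7 in both regions (-2.18 and -2.98). Dab1, an adaptor of reelin signalling, was called higher in cord (1.64) and had 0.82 in brain. Agrn (-0.26 and -0.77) was not called in either region.

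Rbfox1 (ENSMUSG00000008658, chromosome 16, 5885355 to 7411526, plus strand) was raised in a single group. It had 60.3, 50.5 and 45.7 CPM in E13.5 cord, against 15.01, 14.9 and 10.8 CPM in E13.5 brain, 15.4, 16.3 and 12.8 CPM in P7 brain and 13.4, 12.2 and 14.7 CPM in P7 cord. The other 3 groups overlapped. Rbfox1 was lower in brain than in cord at E13.5 by 1.91 ± 0.15 log2 units (SE, limma, Benjamini-Hochberg adjusted p 1.8e-06), or 3.76-fold, and fell with age in cord by 1.91 (adjusted p 1.93e-07). In brain its difference with age was 0.13 ± 0.15 (95% interval -0.16 to 0.43). The interaction of region and age was 2.05 ± 0.21 (adjusted p 2.28e-05). The E13.5 cord is also where Nefl, a neurofilament of motor and other projection neurons, was high, with a mean of 87.1 CPM against 16.5 CPM in E13.5 brain and 14.4 and 27.4 CPM at P7. Of 8 neuron markers 1 was called lower in brain than in cord at E13.5, and their sum was 1307 to 1691 CPM in E13.5 brain and 1451 to 1662 CPM in E13.5 cord. Of the 7 vascular and leptomeningeal markers 3 were called lower in brain than in cord at E13.5, and their sums of 5937 to 8985 CPM in brain and 11243 to 12734 CPM in cord did not overlap. Rgs5, a pericyte gene of that list, averaged 57.0 CPM in E13.5 cord, against 6.48 CPM in E13.5 brain and 15.5 and 8.37 CPM at P7. Other genes of the list did not share this pattern. At E13.5 Pdgfrb was not called between the regions (157 CPM in brain and 208 CPM in cord). Lum was higher in E13.5 brain than in cord (474 and 282 CPM) and was not called. The part of these cells in the Rbfox1 level was not tested.

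The patterns most like that of Rbfox1 were those of Esm1 (Pearson r 0.986), an endothelial secreted proteoglycan with means of 0.238, 5.81, 0.254 and 0.159 CPM in E13.5 brain, E13.5 cord, P7 brain and P7 cord, and of Cacnb1 (r 0.984), a calcium channel beta subunit. The 3 endothelial markers summed to 70.9 to 94.7 CPM in E13.5 cord and to 25.6 to 40.5 CPM in E13.5 brain. That sum is mostly Cdh5 (means of 77.7 and 29.6 CPM), the only marker of the 3 called between the regions at E13.5. Pecam1 (4.06 and 3.05 CPM in cord and brain) and Cldn5 (2.48 and 1.07 CPM) were not called, so the sum is not a measure of the list.

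Rbfox2 (ENSMUSG00000033565, chromosome 15, 77078990 to 77307004, minus strand) was high at E13.5 in both regions. It had 269, 254 and 233 CPM in E13.5 brain and 316, 298 and 259 CPM in E13.5 cord. At P7 it had 81.6, 81.9 and 80.1 CPM in brain and 75.4, 73.7 and 80.8 CPM in cord. The ages were far apart and the regions overlapped at each age. Rbfox2 fell by 1.62 log2 units in brain (SE 0.09, limma, Benjamini-Hochberg adjusted p 1.89e-08) and by 1.91 in cord (SE 0.09, adjusted p 2.83e-09), a 3.08-fold and 3.77-fold difference. The 2 genes most like it were Plppr3 (Pearson r 0.998) and Col23a1, a transmembrane collagen (r 0.998), whose means were 141 and 181 CPM in E13.5 brain and cord and 14.1 and 11.6 CPM at P7. Of the 7 vascular and leptomeningeal markers, 6 were called lower at P7 in brain and 7 in cord. The shares of all genes called lower were 16.7% and 18.2%. Rgs5 went the other way in brain and was called higher at P7 (1.155). The sums of the 7 are given above, and the part of these cells in the Rbfox2 level was not tested. The log2 ratio of Rbfox2 to Rbfox1 was 4.12, 4.05 and 4.37 in E13.5 brain, and 2.30 to 2.60 in the 9 libraries of the other groups. It did not pass by age (-0.88, exact permutation p 0.045, adjusted p 0.0667) or by region (0.83, exact permutation p 0.07, adjusted p 0.08), since the other 3 groups overlapped. Without E13.5 cord replicate 1 the ratio passed by age (-0.90, exact permutation, adjusted p 0.032).

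RBFOX proteins bind TGCATG. Nova1 is shown here because its 3′ UTR held more matches than that of any other regulator, a choice made after the counts were seen. Its 3′ UTR of 5452 bases held 6 matches on the transcript strand, printed with 12 bases on each side and the match in capitals.
Nova1 site 1, chr12:46699320-46699349, minus strand: tggaaataatgcTGCATGctggccagggcc
Nova1 site 2, chr12:46698866-46698895, minus strand: tactcggtaattTGCATGttttgtggagca
Nova1 site 3, chr12:46698818-46698847, minus strand: gacagtatttccTGCATGcttatttagaag
Nova1 site 4, chr12:46698576-46698605, minus strand: ctcctcatgctgTGCATGcagtcttaaatt
Nova1 site 5, chr12:46697852-46697881, minus strand: tcattttttcctTGCATGtcacaagtctca
Nova1 site 6, chr12:46695596-46695625, minus strand: tttttggaattaTGCATGttatttttgttt
Of 781 3′ UTRs within 20% of that length, 83.0% held a match, with a median of 2, and 2.94% held 6 or more. Qk had 4 matches, Nova2 and Mbnl1 3 each, Ptbp2, Srrm4 and Mbnl2 1 each, and Ptbp1, Rbfox1 and Rbfox2 0.

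Srrm4 (ENSMUSG00000063919, chromosome 5, 116439275 to 116591817, minus strand) had the largest fall. It had 26.5, 24.7 and 18.7 CPM in E13.5 brain and 22.6, 20.98 and 18.7 CPM in E13.5 cord. At P7 it had 1.94, 1.92 and 2.14 CPM in brain, from 58 to 81 reads, and 0.864, 0.617 and 0.279 CPM in cord, from 9 to 32 reads. The E13.5 regions overlapped and each P7 group was separate. Srrm4 fell by 3.24 log2 units in brain (SE 0.20, limma, Benjamini-Hochberg adjusted p 4e-08) and by 4.32 in cord (SE 0.20, adjusted p 2.17e-09). On this scale the fold is understated at such low levels. The fitted fall in cord was 20-fold, and the ratio of the mean CPM was 35.4. At P7 Srrm4 was higher in brain by 1.24 ± 0.20 (limma, Benjamini-Hochberg adjusted p 0.000703), the single regulator called between the regions at that age. The size of that difference depends on the pseudocount, and with 1 in place of 0.5 it was 0.93, under the fold threshold. The interaction of region and age was 1.09 ± 0.28 (adjusted p 0.00948), and it was 0.79 with a pseudocount of 1, 0.94 without E13.5 brain replicate 3 and 0.87 without P7 cord replicate 3, none of them past the fold threshold. Of the neuron markers, Stmn2, a protein of growing axons, had means of 53.5 and 85.8 CPM in E13.5 brain and cord, 20.2 CPM in P7 brain and 2.17 CPM in P7 cord. Of all 8 neuron markers 2 were called lower at P7 in brain and 5 in cord. At P7, 2 were called higher in brain than in cord. The shares of all genes in these comparisons were 16.7%, 18.2% and 2.27%. Map2 (0.48 in brain and 0.59 in cord) and Snap25 (0.89 and 0.16) went the other way with age and were not called. Nefl was lower in P7 brain than in P7 cord (-0.90) and was not called. The sum of the 8 was 1307 to 1691 CPM in E13.5 brain and 1451 to 1662 CPM in E13.5 cord. At P7 the sum was mostly Map2, at 1266 to 1365 CPM in brain and 1355 to 1389 CPM in cord. The part of neurons in the Srrm4 level was not tested.

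Srrm3, the paralog of Srrm4 that also promotes short neuronal exons, went the other way in brain, with means of 7.66 CPM at E13.5 and 17.7 CPM at P7 (1.17 ± 0.14, limma, Benjamini-Hochberg adjusted p 1.03e-05). In cord it had 15.7 and 19.4 CPM and was not called (0.30).

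Mbnl1 (ENSMUSG00000027763, chromosome 3, 60472830 to 60629750, plus strand) was steady within 1.56-fold over the 4 group means. It had 107, 113 and 98.7 CPM in E13.5 brain, 141, 129.9 and 106 CPM in E13.5 cord, 124, 116 and 126 CPM in P7 brain and 164, 169 and 165 CPM in P7 cord. Only P7 cord lay above all other libraries. Mbnl2 (ENSMUSG00000022139, chromosome 14, 120275669 to 120431697, plus strand) had 83.6, 80.3 and 64.5 CPM in E13.5 brain, 84.5, 82.1 and 61.9 CPM in E13.5 cord, 88.3, 81.0 and 92.6 CPM in P7 brain and 134, 138 and 139 CPM in P7 cord. P7 cord was again above all others, and the other 3 groups overlapped. The difference with age of Mbnl2 was 0.85 ± 0.13 in cord (limma, Benjamini-Hochberg adjusted p 5.94e-05), or 1.81-fold, and 0.20 ± 0.13 in brain (95% interval -0.05 to 0.45). That of Mbnl1 was 0.41 ± 0.10 in cord and 0.20 ± 0.10 in brain. None was called. The interaction of region and age was -0.65 ± 0.18 for Mbnl2 (adjusted p 0.0125), under the fold threshold, and with TMM scaling it was -0.46 (adjusted p 0.0688). The log2 ratio of Mbnl2 to Mbnl1 lay between -0.77 and -0.25 in all 12 libraries and passed for neither age (0.22, exact permutation p 0.05, adjusted p 0.0667) nor region (0.01, exact permutation p 0.88, adjusted p 0.88). Without E13.5 brain replicate 1 the ratio passed by age (0.25, exact permutation, adjusted p 0.048).

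Mbnl3, the remaining gene of the family, was called lower at P7, with means of 6.94 and 5.42 CPM in E13.5 brain and cord and 0.0954 and 0.143 CPM at P7 (-3.61 and -3.15). Its P7 values were 0.0331 to 0.132 CPM in brain and 0.027 to 0.217 CPM in cord. In P7 libraries 3 reads are 0.0792 to 0.0992 CPM, so the size of this fall is uncertain. Of 5 genes with exons known to be regulated by RBFOX or MBNL proteins, Grin1, an NMDA receptor subunit, was called higher at P7 in both regions (2.90 and 1.59). Mapt (1.52) and Cacna1d (1.60) were called higher in brain, with 0.75 and 0.46 in cord. Cacna1c was called lower in cord (-1.49), and Snap25 was not called (0.89 and 0.16).

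Between the regions few regulators were called. At E13.5 Rbfox1 alone was called, lower in brain, where 3.53% of all genes were called higher in brain and 5.17% lower. At P7 Srrm4 alone was called, higher in brain, where 2.27% of all genes were called higher and 4.35% lower. By adjusted p alone 4 regulators passed at E13.5 and 6 at P7, against 32.6% and 30% of all genes. The 6 at P7 were Qk, Ptbp1, Nova1, Mbnl1 and Mbnl2, lower in brain by 0.44 to 0.65, and Srrm4. These 5 lower values stand beside the -0.19 of the median gene, and after TMM rescaling they were -0.43, -0.32, -0.27, -0.25 and -0.46, with adjusted p of 0.12, 0.119, 0.29, 0.128 and 0.0256. In the interaction of region and age, Rbfox1 and Srrm4 were called higher and Qk lower, where 6.66% of all genes were called higher and 9.66% lower. By adjusted p alone 6 passed, against 39.8% of all genes. In the plot of differences these 3 genes have their E13.5 and P7 points furthest apart.

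**Figure D3:**
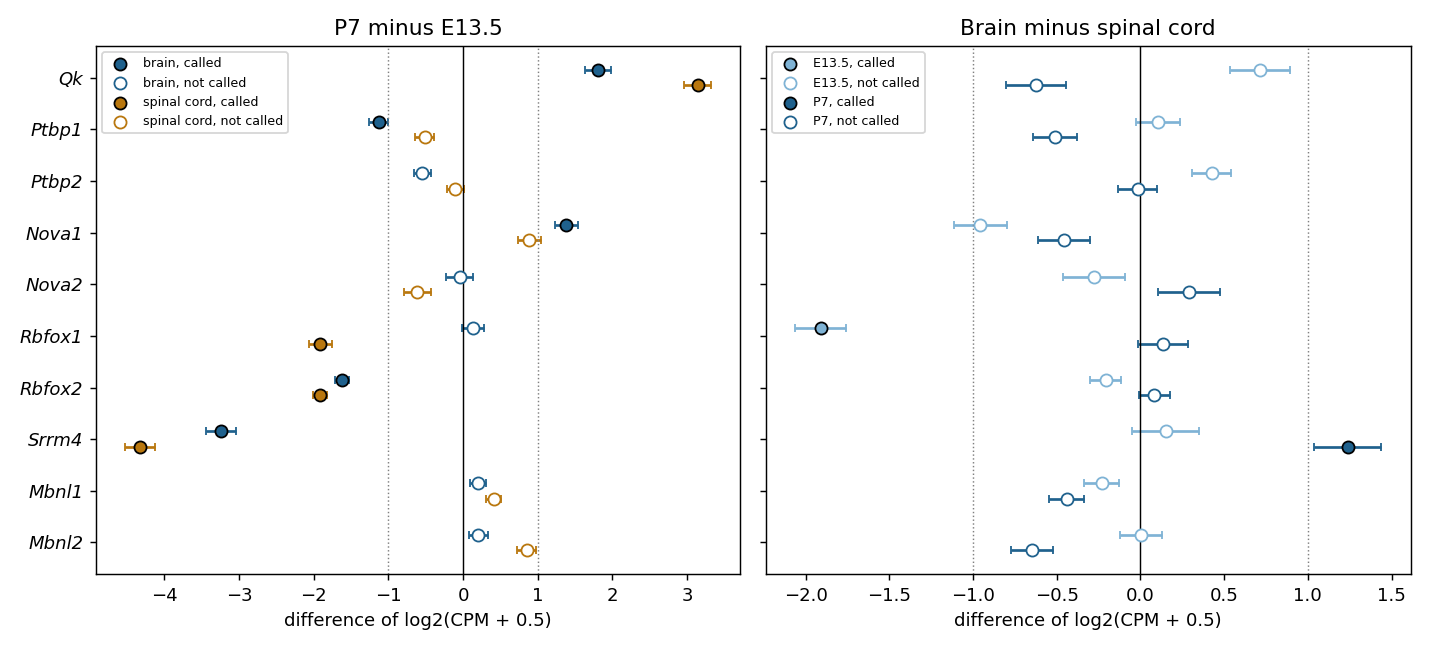
Difference of log2(CPM + 0.5) with SE bars for each regulator, P7 minus E13.5 in brain and in cord (left) and brain minus cord at E13.5 and P7 (right), with filled points for called genes and dotted lines at a 2-fold difference. Age separates Qk (1.81 and 3.14), Rbfox2 (-1.62 and -1.91) and Srrm4 (-3.24 and -4.32) in both regions, while the regions are parted by more than 2-fold only for Rbfox1 at E13.5 and Srrm4 at P7.

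Levels of different genes were compared per kilobase of exon. In E13.5 brain the order began with Ptbp2 at 42.2 ± 2.68, Qk at 41.6 ± 7.67, Ptbp1 at 34.1 ± 1.958 and Rbfox2 at 31.0 ± 2.21 CPM per kb (SD, n = 3), and the first 2 differed by less than their SD. In E13.5 cord Rbfox2 was at 35.8 ± 3.58, Ptbp1 at 32.3 ± 7.80, Ptbp2 at 31.7 ± 5.07 and Qk at 25.3 ± 3.796 CPM per kb, and the first 3 differed by less than the SD of Ptbp1 or Ptbp2. At P7 Qk led by a wide margin, at 144 ± 8.36 in brain and 222 ± 10.9 in cord. Ptbp2 came next at 28.9 ± 1.13 and 29.3 ± 0.376, followed by Ptbp1 at 15.5 ± 0.54 and 22.2 ± 0.581 CPM per kb. Nova1 stood at place 7 in E13.5 brain and at place 4 in both P7 groups. Nova2 and Srrm4 held the last 2 places in all 4 groups, with Nova2 last at E13.5 and Srrm4 last at P7. In P7 brain and P7 cord Srrm4 was at 0.23 ± 0.0141 and 0.0676 ± 0.0338 CPM per kb.

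**Figure D4:**
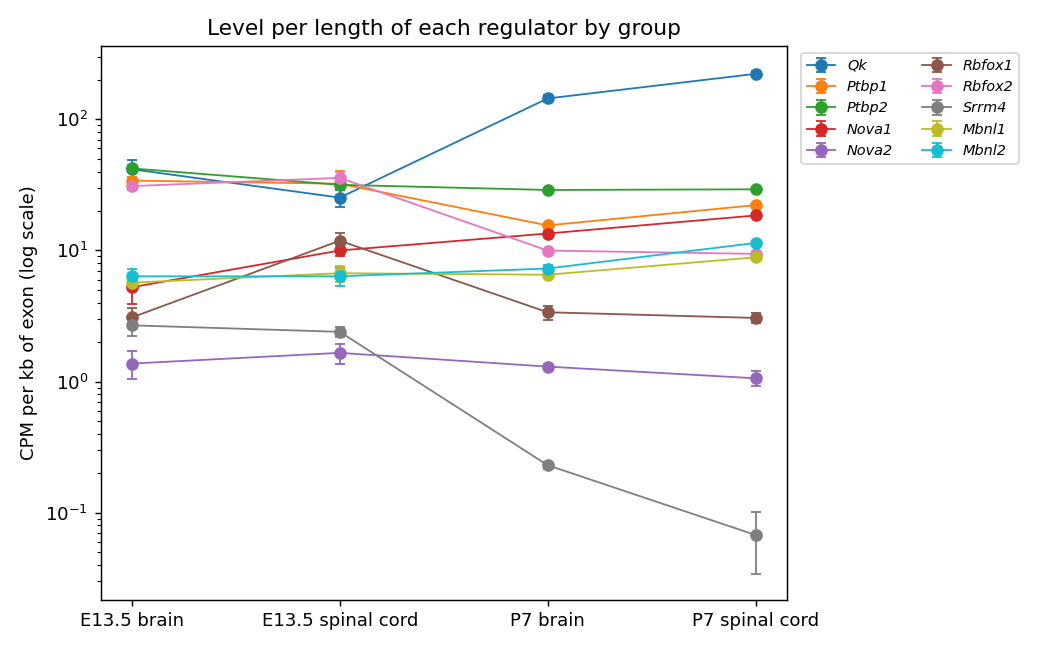
CPM per kilobase of exon (vertical axis, log scale) of each regulator in the 4 groups, with points for the mean of 3 libraries and error bars for the SD; lines only join the points of 1 gene. Qk separates upwards at P7, to 144 and 222 CPM per kb, and Srrm4 downwards, to 0.23 and 0.0676.

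The genes whose log2 level over the 12 libraries was most like that of the other regulators were, for Ptbp1, Nt5dc2 (Pearson r 0.991) and Tcf3 (r 0.989), the latter a helix-loop-helix factor of progenitors. For Ptbp2 they were Smchd1, a chromatin protein of X inactivation (r 0.968), and Gnrh1 (r 0.964). Nova1 was most like Asic1, an acid-sensing ion channel (r 0.982), with means of 23.3, 53.6, 99.1 and 145 CPM from E13.5 brain, E13.5 cord and P7 brain to P7 cord, and Hecw2 (r 0.981). Nova2 had no gene above r 0.881, that of Mei4, with Coro2a at r 0.879. Srrm4 was most like Zfhx4, a homeodomain and zinc finger factor with means of 239.9, 212, 24.4 and 12.3 CPM in the same order (r 0.994), and Zfp217 (r 0.993). Mbnl1 was most like Golga2 (r 0.978) and Washc2 (r 0.966), and Mbnl2 like Arrdc2 (r 0.986) and the kinesin gene Kif1b (r 0.983). The P7 and E13.5 libraries lie apart for many genes, so r across all 12 includes that separation.

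The general splicing machinery was listed beside the regulators. Of 13 SR protein genes, which encode general splicing activators, 0 were called with age or between regions by limma, limma-voom or edgeR. With age, 9 in brain and 6 in cord had an unadjusted limma p under 0.05. That was common in the whole table, where 61.3% of all genes in brain and 70% in cord passed even by adjusted p. Their age differences ran from -0.75 to 0.73 in brain and from -0.31 to 0.73 in cord, with medians of -0.42 and 0.29. Of 20 hnRNP genes, 2 were called lower at P7 in brain, Raly (-1.05) and Hnrnph3 (-1.05), and 1 in cord, Hnrnph3 (-1.22). The hnRNP medians were -0.49 and 0.13, and after TMM rescaling 0 were called in brain and the brain median was -0.30. Of 30 core spliceosome genes, Snrpe alone was called with age, lower at P7 in brain (-1.17), which TMM scaling ended, and the medians were -0.39 and 0.29. In cord 0 were called by limma, limma-voom or edgeR, and 17 of the 30 had an unadjusted limma p under 0.05, beside the 70% of all genes above. The median over all genes was -0.19 in brain and 0.12 in cord, on the same side as these lists in both regions. After TMM rescaling the brain median of all genes was -0.02. Those of the lists were then -0.23 for SR proteins, -0.30 for hnRNPs and -0.20 for the core spliceosome. In the interaction of region and age the medians were -0.70 for SR proteins, -0.60 for hnRNPs and -0.69 for the core spliceosome, against 0.04 for the 10 regulators and -0.24 for all genes, and Hnrnpab (-1.29), Hnrnpf (-1.29) and Snrpf (-1.25) were called lower. Whether these lists differ from the regulators was not tested. The last list held 17 other members of the regulators' families and of the CELF, ELAVL and KHDRBS families. With age 1 of the 17 was called higher and 2 lower in brain, and 2 higher and 6 lower in cord. Over the 18319 tested genes the shares were 11% up and 16.7% down for brain, with 16.9% and 18.2% for cord. Whether the list departs from those shares was not tested. Elavl2, a neuronal RNA stability factor, fell in both regions (-1.78 and -1.67), Rbfox3, the NeuN gene of mature neurons, fell in cord (-1.95), and Celf3 fell in cord (-1.71). Elavl3, of the same family as Elavl2, went the other way and was called higher in cord (1.48), as was Khdrbs3 (1.23).

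**Figure D5:**
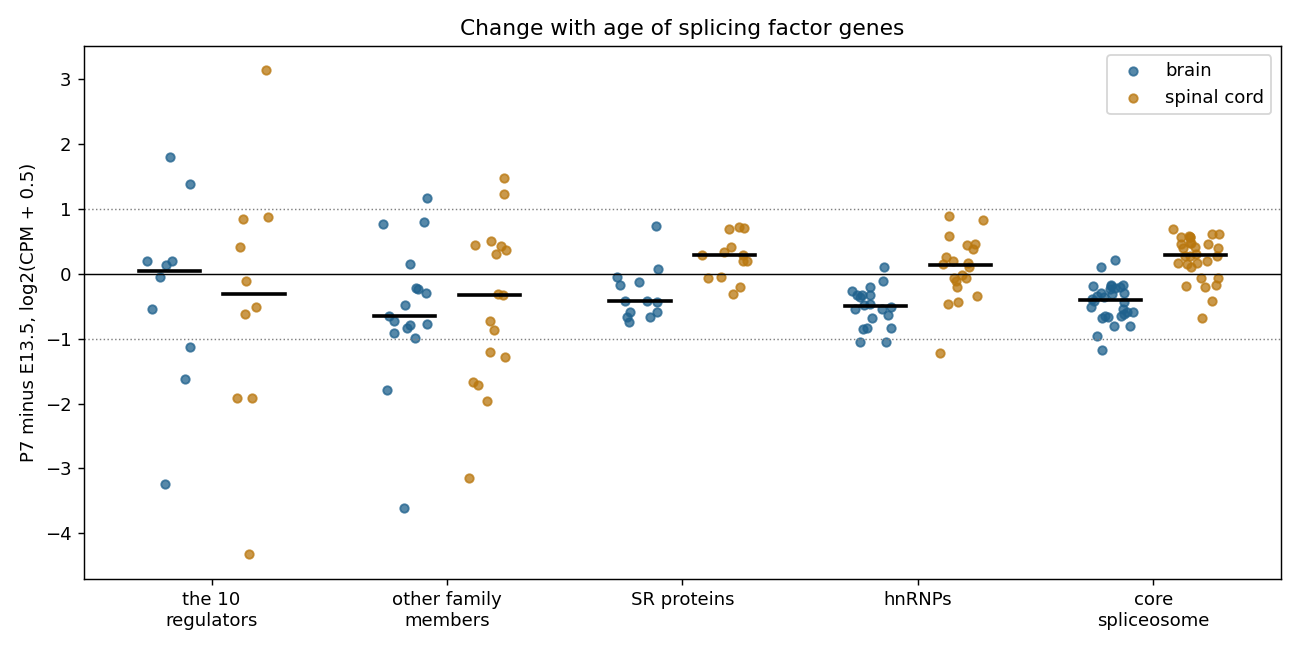
P7 minus E13.5 difference of log2(CPM + 0.5) for each gene of 5 lists, in brain and in cord, with 1 point per gene, a black bar for the median and dotted lines at a 2-fold difference; sideways scatter within a column has no meaning. The SR proteins lie between -0.75 and 0.73, whereas the 10 regulators run from -4.32 to 3.14.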

How the data were processed

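Stranded total RNA libraries were aligned by the authors with STAR 2.5.0a to mm10 (GRCm38) and counted per GENCODE M8 gene with featureCounts 1.5.0-p1, sharing multi-mapping reads fractionally, with rounding. The submitters' processing notes also name HISAT2 2.0.5 and StringTie 1.3.1c. Strand use in counting is not stated. The authors deposited CPM, not logged, relative to a rescaled library size. The deposited columns for E13.5 spinal cord replicate 3 and P7 spinal cord replicates 1 and 2 sum to more than an unscaled CPM can, and were entered as signal on the same scale. Every value was a whole multiple of 1 read (100% within 0.001), so reads were recovered (12566345 to 38790312 per library). A value of 3 reads is 0.0792 to 0.506 CPM, which covers counting error only. The deposited factor exceeded recomputed TMM in the P7 brain libraries alone, by 16.3%, 13.1% and 13.1%.

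The 18319 genes reaching 0.7 CPM in 3 or more libraries were fitted with limma 3.58.1 (trend) on log2(CPM + 0.5), with 1 mean for each of the 4 groups taken from the titles and 5 contrasts, in R 4.3.3. The study used voom, which was run on recovered reads as an alternative, like edgeR 4.0.16. Scripts were tested on simulated counts. Paralog ratios were compared by exact permutation. Positions, symbols, exon lengths and 3′ UTRs came from GENCODE M21 on the same build. The members and gene lists were chosen with earlier results of these data known, and the motif search was added after the values were seen. Besides the 10 members, genes named are the up to 4 largest called changes of each list, whole lists of up to 6 genes, the 2 genes most correlated with a member, and overlapping genes. Srrm3, Elavl3, Khdrbs3, Hnrnpab, Hnrnpf and Snrpf, outside that rule, were named after their values were seen. Sample columns left unused numbered 0. Other alternatives were the pseudocount, the filter, TMM and median-ratio scaling, a replicate block, averaging P7 replicates 1 and 2, and leaving out each library. Libraries were pools of animals of both sexes, and replicate numbers in the titles do not state a shared pool. Some members of the target lists and 1 motif match are not reported here.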

Additional observations from a re-analysis of the deposited data

Results flagged for a closer look

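The effect of region differed between the ages for 3 of the regulators, each by a test of the difference itself (limma, Benjamini-Hochberg over 18319 genes). For Qk the brain minus spinal cord difference was 0.71 at E13.5 and -0.62 at P7, a change of -1.338 ± 0.251 (SE, adjusted p 0.00127), called under every alternative run. For Rbfox1 it was -1.91 and 0.14, a change of 2.046 ± 0.213 (adjusted p 2.28e-05), also called under every alternative run. For Srrm4 it was 0.15 and 1.24, a change of 1.087 ± 0.284 (adjusted p 0.00948), which was under the fold threshold with a pseudocount of 1, without E13.5 brain replicate 3 and without P7 spinal cord replicate 3. The median gene changed by -0.24 in this comparison, and by -0.07 after TMM rescaling.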

How the results depend on the processing

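For the 10 regulators, 1073 of 1100 differences kept direction and side of the threshold over 22 alternatives, and 106 of 115 counts of called members stayed within 1.5 times the reported count. With no fold threshold the counts were 9 for age in cord, 4 and 6 between regions at E13.5 and P7, and 6 in the interaction of both, the change of the region difference. A pseudocount of 1 left 0 called for region at P7, where limma then still gave Srrm4 an adjusted p of 0.00129. Median-ratio rescaling gave 2 for region at E13.5. Leaving out 1 library gave 5 for age in brain, 4 in cord, 1 to 2 for region at E13.5, 1 at P7 and 2 to 3 for the interaction. Leaving out E13.5 cord replicate 3 changed no call of a regulator. A replicate block gave counts of 5, 4, 1, 1 and 3, as without it. Same-numbered libraries deviated together in E13.5 brain and cord (mean r 0.27, lowest 0.082), where libraries of different number had a mean r of -0.131. At P7 the same means were 0.0273 and -0.0119. The numbers were not taken to pair the samples, and a pairing at E13.5 alone was not tested. None of the differences that turned direction was called. Nova2 with age in brain turned to 0.14 (TMM) and 0.15 (median-ratio), and ranged from -0.256 to 0.0692 over left-out libraries. Over left-out libraries Rbfox1 with age in brain ranged from -0.0152 to 0.232, Ptbp2 with age in cord from -0.207 to 0.0189 and Ptbp1 by region at E13.5 from -0.017 to 0.294. Mbnl2 by region at E13.5 turned to -0.0814 (median-ratio), -0.0321 (voom) and -0.00607 (edgeR), and ranged from -0.138 to 0.118 over left-out libraries. Ptbp2 by region at P7 turned to 0.17 (TMM), 0.21 (median-ratio), and ranged from -0.0385 to 0.0151 over left-out libraries. The interaction for Mbnl1 turned to 0.10 (median-ratio). With P7 replicates 1 and 2 averaged, which leaves fewer splits, no ratio passed by exact permutation: Ptbp2 to Ptbp1 gave 0.48 by age and 0.39 by region (adjusted p 0.08 each), Nova2 to Nova1 -1.50 and 0.73 (adjusted p 0.0667 each). Leaving out 1 library gave 0.35 to 0.62 and 0.26 to 0.53 for Ptbp2 to Ptbp1, where 10 of 12 omissions ended each call, -1.51 to -1.41 and 0.65 to 0.74 for Nova2 to Nova1, which kept both, -0.925 to -0.833 and 0.78 to 0.86 for Rbfox2 to Rbfox1, and 0.19 to 0.25 and -0.0175 to 0.0446 for Mbnl2 to Mbnl1. For 2 ratios that did not pass, an omission brought a pass by age (exact permutation). These were Rbfox2 to Rbfox1 without E13.5 cord replicate 1 (adjusted p 0.032 by exact permutation) and Mbnl2 to Mbnl1 without E13.5 brain replicate 1 (adjusted p 0.048 by exact permutation). The cause of these shifts was not tested.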
